A study of Mus musculus with 12 samples.

Results

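The α defensin gene cluster of the mouse lies on chromosome 8, and its genes were taken here as every gene of the deposited tables that lies on chromosome 8 of mm10 between 20.9 and 22 Mb. That rule gave 77 of the 47632 genes in each table, from 20900606 to 21974041. Expression was measured by RNA-seq of epithelial cells isolated from the colon of C57/BL6 mice. Animals of both genotypes carry floxed alleles of *Tfeb*, the gene of transcription factor EB. In *Tfeb* ΔIEC animals, Cre recombinase expressed from the villin promoter deletes the gene in the whole intestinal epithelium, and *Tfeb* flox/flox animals are the controls. Both genotypes were examined without treatment (Day 0), on Day 4 and on Day 11 of an experiment with dextran sodium sulfate (DSS), an agent that injures the colonic epithelium and that the labels give at 2.5% and the methods, for the drinking water, at a slightly lower concentration. By the methods, plain water replaced it for the last days before Day 11. There were 2 animals in each of the 6 groups, aged 10 and 12 weeks on Day 0, 12 weeks on Day 4 and 10 weeks on Day 11. The authors deposited 1 value per gene, genotype and day, made from both animals, so that no value has an error and the number of reads behind it is unknown. No difference was tested here, and the authors' own tests were not used.

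α defensins, called cryptdins in the mouse, are short cysteine-rich peptides that permeabilize bacterial membranes. In the mouse they are products of Paneth cells, secretory cells at the base of the crypts of the small intestine that are normally rare or absent in the colon. They are made as a precursor with a signal peptide and a propeptide, stored in granules, and cut to the mature peptide by the protease matrilysin (*Mmp7*). The genes arose by repeated duplication, so that many of them are nearly identical, and a set of cryptdin-related genes (CRS) on the opposite strand of the cluster encodes peptides with a different arrangement of cysteines. β defensins, made by many epithelia, are encoded at the edges of the same stretch of chromosome.

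Most of these genes cannot be recognised by their symbol in the tables. Only 11 of the 77 genes carry a symbol of Defa and a number, while current annotation (GENCODE M21 and RefSeq names) gives 28 coding α defensin genes, 17 unprocessed pseudogenes, 10 processed pseudogenes, 11 coding β defensin genes, 8 small RNAs and 3 other coding genes. Under current names *Gm15284* is *Defa30*, *Gm15299* is *Defa27*, *Gm10104* is *Defa35*, *Gm15292* is *Defa40*, *Gm15308* is *Defa32*, and *AY761184* is *Defa39* (matched by its place only). Of the 77 genes, 69 had a RefSeq record.

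The differences between the leading genes are shown by the last stretch of their coding sequence, which encodes the mature peptide. Each of the following lines holds the last bases before the stop codon, 105 in all or 104 for *Defa25*, taken from the GENCODE M21 transcript and aligned to *Defa24*, the gene with the highest value. Capitals mark bases that differ from *Defa24* in the alignment or are inserted against it. Gaps in the alignment are not drawn. The lines of *Defa25*, *Defa22* and *Defa21* hold gaps, so some of their bases do not stand under the bases they were aligned to.
*Defa24*: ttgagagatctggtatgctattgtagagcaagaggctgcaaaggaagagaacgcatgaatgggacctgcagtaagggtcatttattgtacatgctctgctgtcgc
*Gm15284*: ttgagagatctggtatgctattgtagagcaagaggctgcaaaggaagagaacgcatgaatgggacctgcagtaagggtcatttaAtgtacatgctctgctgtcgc
*Defa17*: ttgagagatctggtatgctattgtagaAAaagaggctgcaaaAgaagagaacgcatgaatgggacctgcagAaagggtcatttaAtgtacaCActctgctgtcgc
*Gm15299*: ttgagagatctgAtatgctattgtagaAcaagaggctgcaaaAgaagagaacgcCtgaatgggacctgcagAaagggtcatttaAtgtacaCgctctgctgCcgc
*Defa25*: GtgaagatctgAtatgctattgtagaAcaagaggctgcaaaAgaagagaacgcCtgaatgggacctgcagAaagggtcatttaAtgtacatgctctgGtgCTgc
*Defa26*: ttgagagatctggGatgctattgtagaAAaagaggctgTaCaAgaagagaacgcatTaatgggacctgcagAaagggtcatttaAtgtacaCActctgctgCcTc
*Defa22*: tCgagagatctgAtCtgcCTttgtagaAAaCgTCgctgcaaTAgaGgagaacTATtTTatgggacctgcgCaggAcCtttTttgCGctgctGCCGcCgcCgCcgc
*Defa21*: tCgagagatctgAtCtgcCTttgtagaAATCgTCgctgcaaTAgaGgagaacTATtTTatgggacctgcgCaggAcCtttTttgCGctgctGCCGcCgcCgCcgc
*Gm10104*: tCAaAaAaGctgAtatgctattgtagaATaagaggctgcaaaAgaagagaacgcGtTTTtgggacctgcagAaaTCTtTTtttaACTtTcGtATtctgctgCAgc

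*Gm15284* differed from *Defa24* at 1 base of this stretch, *Defa17* at 7 and *Gm15299* at 8. In *Defa22*, whose alignment has gaps, 31 bases differed or were inserted. Over the whole coding sequence, 279 bases long in *Defa24*, *Gm15284* was 98.6% identical to *Defa24*, *Defa17* 95.7%, *Gm15299* 91.0%, *Defa25* 90.0%, *Defa26* 89.2% and *Defa22* 82.4%. The CRS gene *AY761184* has a coding sequence of 348 bases and was 64.1% identical to it. Several genes cannot be separated by their coding sequence at all. *Defa17* and *Defa3* were 100% identical, as were *Defa20* and *Gm15308*.

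How much sequence a gene has to itself sets how firmly a value can be tied to it. Of the 50-base stretches in its transcripts, *Defa24* had 71.9% that occur in no other annotated gene, *Defa26* 59.8%, *Gm15284* 47.6%, *Gm15299* 47.1%, *Defa25* 25.2% and *Defa22* 25.1%. For *Defa17* the share was 8.05%, and 92.0% of its stretches occur in *Defa3*. *Gm15308* had 0 of 376 stretches to itself and *Defa5* had 1 of 327. Apart from the processed pseudogenes *Gm6689* and *Gm15312*, which share stretches with 45 and 35 genes outside the cluster, the genes with 1 FPKM or more shared sequence only with other genes of the cluster. How the authors assigned reads that fit several genes is not given in the sources used here, and the values of *Defa17*, *Defa5* and *Gm15308* could each include reads of a neighbour.

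Before the values, 3 properties of the tables matter. *Tfeb* had an FPKM (fragments per kilobase of transcript in a library of standard size) of 0.901, 1.08 and 1.18 in controls on Days 0, 4 and 11, and of 0.185, 0 and 0 in ΔIEC animals. Each table holds the genotypes of 1 day, and how values were scaled across days is not given in the sources used here, so genotypes are compared within a day and levels of different days only stand side by side. The tables of Day 4 and Day 11, whose labels name different animals, hold many identical numbers: among genes above 0 on Day 4 and again on Day 11, 14.3% had exactly the same number in controls and 10.2% in ΔIEC animals. Day 11 is therefore given beside Day 4 and not as a repeat of it.

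Of the 77 genes, 21 had a value above 0 in any group, 19 reached 1 FPKM, and 56 were listed at 0 in all 6 values. Of the 28 coding α defensin genes, 14 reached 1 FPKM and the other 14 were listed at 0 throughout. Those at 0 were *Defa2*, *Defa3*, *Defa20*, *Defa23*, *Defa-rs7*, *Gm6696*, *Gm7849*, *Gm7861*, *Gm14850*, *Gm14851*, *Gm15293*, *Gm15315*, *Gm21002* and *Gm21498*. The 23 coding α defensin genes on the plus strand included 12 of those that reached 1 FPKM. Cuffdiff gave all 19 genes the status OK on Days 4 and 11, and 5 of them on Day 0.

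**Figure D1:**
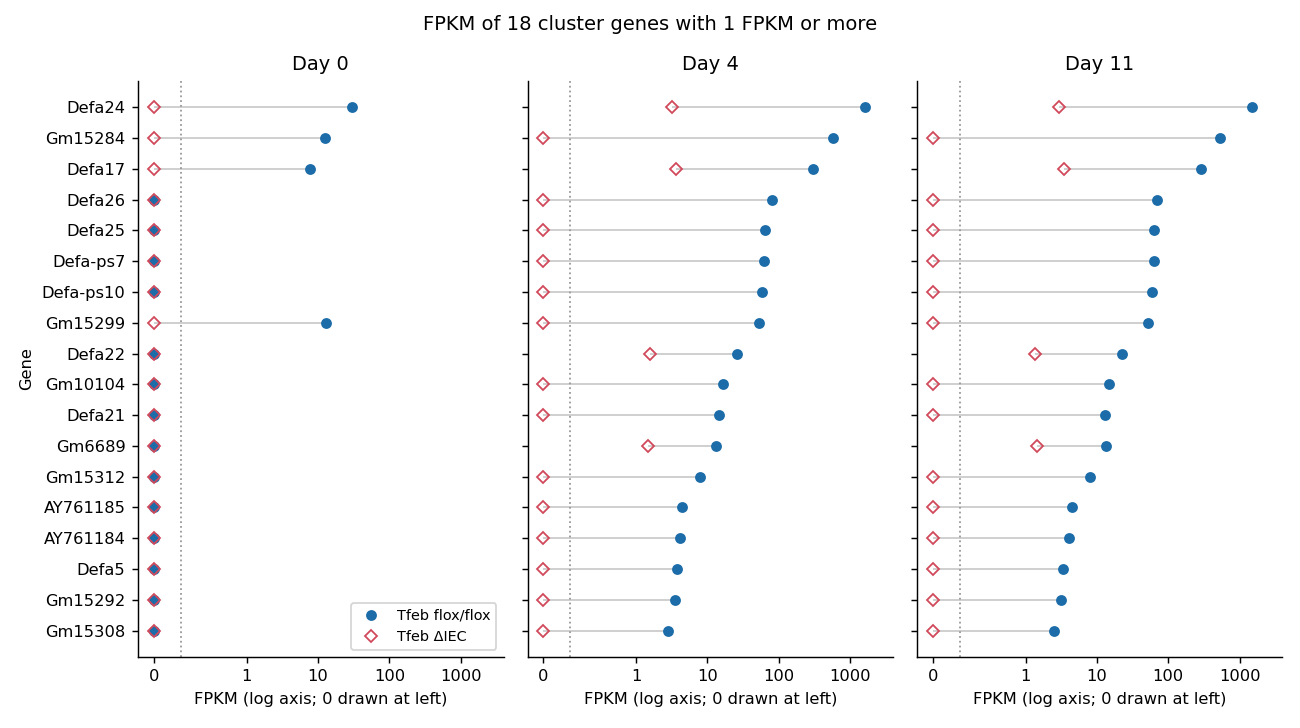
FPKM of 18 of the 19 genes of the cluster with 1 FPKM or more in any group, in rows ordered by the Day 4 value, with 1 panel per day. Each point is the authors' value for 2 animals (filled circles *Tfeb* flox/flox, open diamonds *Tfeb* ΔIEC), on a log axis with values of 0 drawn left of the dotted line. On Days 4 and 11 every filled circle lies right of its diamond, and 14 of the 18 diamonds lie at 0.

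In untreated animals, 5 coding α defensin genes had 1 FPKM or more, all in controls. *Defa24* had an FPKM of 29.6, *Gm15299* 13.0, *Gm15284* 12.6 and *Defa17* 7.63. In ΔIEC animals all 5 were listed at 0. The only gene of the cluster above 0 there was the processed pseudogene *Gm7869*, at 0.167, which was listed at 0 in every other group. On the scale of log2(FPKM + 1), all 5 genes were at least 4-fold lower in ΔIEC animals, where 3.35% of all genes with 1 FPKM or more were, but they passed the minimum of 1 FPKM through controls alone, which fixed the direction, so nothing is read from this count. Its size depends on the FPKM added: with 5 FPKM 1 gene passed, and with a listed 0 replaced by a low level for the gene's length, defined further on, 2 did. Their median log2 fold change was -3.77 with 1 FPKM added, -6.99 with 0.1 and -1.82 with 5, and -1.997 with the low level. That of all genes was 0.06. Of the 6 genes above 0 in either genotype, 5 were listed at 0 in ΔIEC animals only, as were 11.5% of all genes above 0.

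On Day 4 of DSS, 19 genes of the cluster had 1 FPKM or more in controls, and 3 of them stood far above the rest. *Defa24*, at 21734494 to 21735471 on the plus strand, had an FPKM of 1610 in controls and 3.18 in ΔIEC animals, a ratio of 507. *Gm15284*, at 21134642 to 21135598, had 584 in controls and was listed at 0 in ΔIEC animals. *Defa17*, at 21655780 to 21656735, had 297 and 3.61, a ratio of 82.2. These 3 genes made up 85.5% of the summed FPKM of the cluster in controls. *Defa24*, alone 55.3% of that sum, was the gene with rank 140 among all genes of that group.

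A middle group of coding genes had between 10 and 80 FPKM. *Defa26* had 79.3 in controls, *Defa25* 64.8, *Gm15299* 53.2, *Gm10104* 16.2 and *Defa21* 14.6, and these 5 were listed at 0 in ΔIEC animals. *Defa22*, whose transcript shares 72.7% of its stretches with *Defa21*, had 25.8 and 1.59. The remaining coding α defensin genes were low in controls. Among these, *AY761184* with 4.09, *Defa5* with 3.68, *Gm15292* with 3.49 and *Gm15308* with 2.83 were listed at 0 in ΔIEC animals.

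Noncoding neighbours had values as well. The unprocessed pseudogenes *Defa-ps7* and *Defa-ps10*, of 168 and 171 nt, had an FPKM of 62.6 and 57.6 in controls, and the processed pseudogenes *Gm6689* and *Gm15312* had 13.0 and 7.94. Of these, only *Gm6689* was above 0 in ΔIEC animals, at 1.46. *AY761185*, a coding gene at the edge of the stretch that neither annotation names as a defensin, had 4.34 and was listed at 0 in ΔIEC animals. *Defb1*, a β defensin of the far edge, had 0.874 and 0, and the other 10 β defensin genes of the stretch, the other 7 processed and 15 unprocessed pseudogenes, all 8 small RNAs, *Fam90a1a* and *Ccdc70* were listed at 0 in every group.

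**Figure D2:**
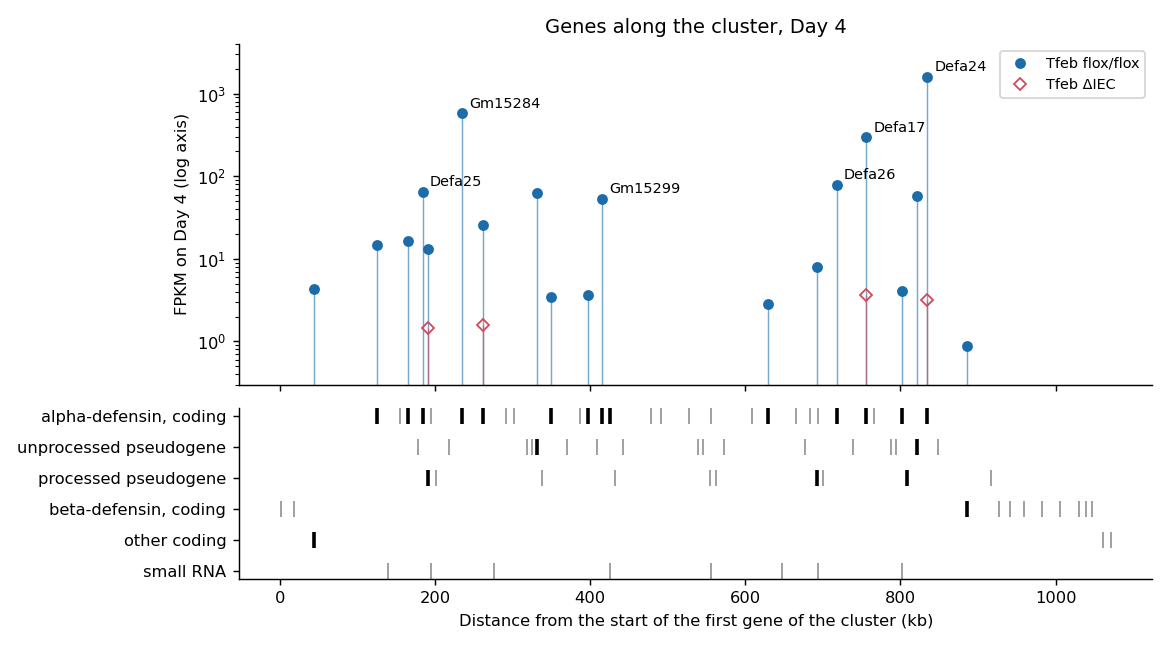
FPKM on Day 4 of the genes named with values by their distance in kb from the start of the first gene of the cluster (upper panel, log axis, values above 0 only) and the place of every gene by class (lower panel, black ticks for genes above 0 in any group). The 3 highest genes lie apart from each other, with genes at 0 between them, and the values above 1 FPKM span 792 kb.

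Of the 19 genes, 18 were at least 4-fold lower in ΔIEC animals on Day 4 on the scale of log2(FPKM + 1), and 10.3% of all genes with 1 FPKM or more were. Of the 19, 14 were listed at 0 in ΔIEC animals and passed the minimum of 1 FPKM through controls alone, which fixed their direction. The other 5 had 1 FPKM or more in both genotypes and were lower in ΔIEC animals. With 5 FPKM added 10 genes were at least 4-fold lower, and with a listed 0 replaced by the low level for the gene's length 11 were. The gene that did not pass with 1 FPKM added was *Gm15308*. A control value under 3 FPKM cannot reach 4-fold on this scale even against a value of 0. The median log2 fold change of the 19 genes was -3.97 with 1 FPKM added, -6.33 with 0.1 and -2.09 with 5, and that of all genes was 0.06. Of the 20 genes above 0 in either genotype, 15 were above 0 in controls and listed at 0 in ΔIEC animals, as were 10.1% of all genes above 0.

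Summed over the cluster, the FPKM was 2913 in controls and 10.9 in ΔIEC animals on Day 4. Such a sum depends less than single values on how shared reads were divided among the genes. The sums were 0.199% and 0.00133% of the FPKM of all genes. The coding α defensin genes alone summed to 2767 and 9.43. On Day 0 the cluster summed to 66.0 and 0.167. In bulk samples such as these, fewer cells of a type and less RNA per cell cannot be told apart.

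On Day 11 the values lay close to those of Day 4. *Defa24* had an FPKM of 1478 in controls and 2.98 in ΔIEC animals, a ratio of 496. *Gm15284* had 530 and 0, and *Defa17* had 285 and 3.46. Next came *Defa26* with 69.0, *Defa25* with 64.1, *Defa-ps7* with 63.8, *Defa-ps10* with 59.4 and *Gm15299* with 51.5, all of them listed at 0 in ΔIEC animals. Across the 19 genes the Day 11 value in controls was 87.0 to 104% of the Day 4 value, and for *Gm15312* it was identical. The cluster summed to 2699.5 and 10.4. Of the 19 genes, 18 were at least 4-fold lower in ΔIEC animals, where 10.2% of all genes were. Only 5 of the 19 were above 0 in ΔIEC animals. The others passed the minimum of 1 FPKM through controls alone, which fixed their direction. The median of the 19 genes was -3.81 on the log2 scale, and *Gm15308* was the gene that did not pass. Of the 20 genes above 0, 15 were listed at 0 in ΔIEC animals only, against 10.1% of all genes above 0. *Defa24*, *Defa17*, *Defa22* and *Gm6689* were above 0 in both genotypes, as on Day 4, and their ratios ran from 9.11 for *Gm6689* to 496 for *Defa24*.

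The genes of the cluster that had values are short, and other short genes were often lower in ΔIEC animals as well. The transcripts of the 19 genes with 1 FPKM or more are 168 to 508 nt long. Among other genes with 1 annotated transcript in this range of lengths and 1 FPKM or more, 42.1% were at least 4-fold lower in ΔIEC animals on Day 4 and 8.09% at least 4-fold higher. The median log2 fold change of these 865 genes was -1.76. On Day 0 it was -1.05, with 20.7% at least 4-fold lower, and on Day 11 it was -1.75, with 42.1%. Of the genes of this length above 0 in either genotype, 30.7% on Day 0, 31.7% on Day 4 and 31.4% on Day 11 were above 0 in controls and listed at 0 in ΔIEC animals. The sum of FPKM over all genes also differed on Day 4, at 1464717 in controls and 820344 in ΔIEC animals. With both genotypes divided by that sum, the ratio of the summed cluster on Day 4 was 150, against 268 as deposited. On that scale 12 of the 19 genes were at least 4-fold lower on Day 4 and 13 on Day 11, and 0 were higher. Most of the 19 were listed at 0 in ΔIEC animals and could not be higher on any scale, so nothing is read from that 0. Of all genes 4.77% were then at least 4-fold lower and 13.6% higher on Day 4, against 10.3% and 7.36% as deposited, and their median moved from 0.06 to 0.66. Of the other genes of the same length 24.5% were lower. The part of transcript length in the values of the cluster was not tested.

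**Figure D3:**
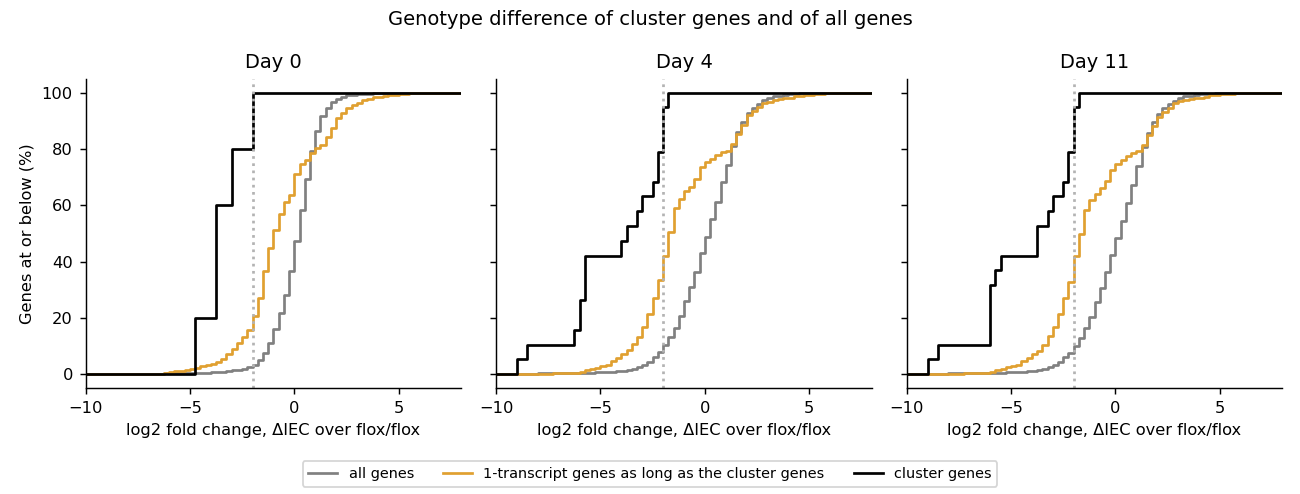
Share of genes (%) at or below each log2 fold change (*Tfeb* ΔIEC over *Tfeb* flox/flox, log2(FPKM + 1)), for genes with 1 FPKM or more, with 1 panel per day. The line of the cluster lies left of that of all genes on each day, and the line of other genes of the same length lies between them around the 4-fold mark (dotted).

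A value of a short gene can be large and still rest on little. In these tables the low values above 0 depend on transcript length, so the 10th percentile of the values above 0 among other genes with 1 transcript within 10% of a gene's length was taken as the low level of a group at that length. This measure was chosen after the values had been seen, and rests on 15 to 337 genes. On Day 4 in controls, *Defa24* stood at 651 times its low level, *Gm15284* at 214 times, *Defa17* at 108 times, *Defa26* at 25.2 times, *Gm15299* at 16.8 times, *Defa22* at 10.4 times and *Defa25* at 10.2 times. At the other end, 8 of the 19 genes were under 3 times the low level, among them *Defa-ps7* and *Defa-ps10* at 1.35 and 1.32 times in spite of an FPKM near that of *Defa25*. In ΔIEC animals *Defa24*, *Defa17*, *Defa22* and *Gm6689* stood between 0.994 and 2.02 times their low level on Day 4 and between 0.823 and 1.88 times on Day 11. *Defa24* was at 1.99 times on Day 4. On Day 0 *Defa24*, *Gm15299*, *Gm15284* and *Defa17* stood between 3.35 and 14.9 times it in controls.

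**Figure D4:**
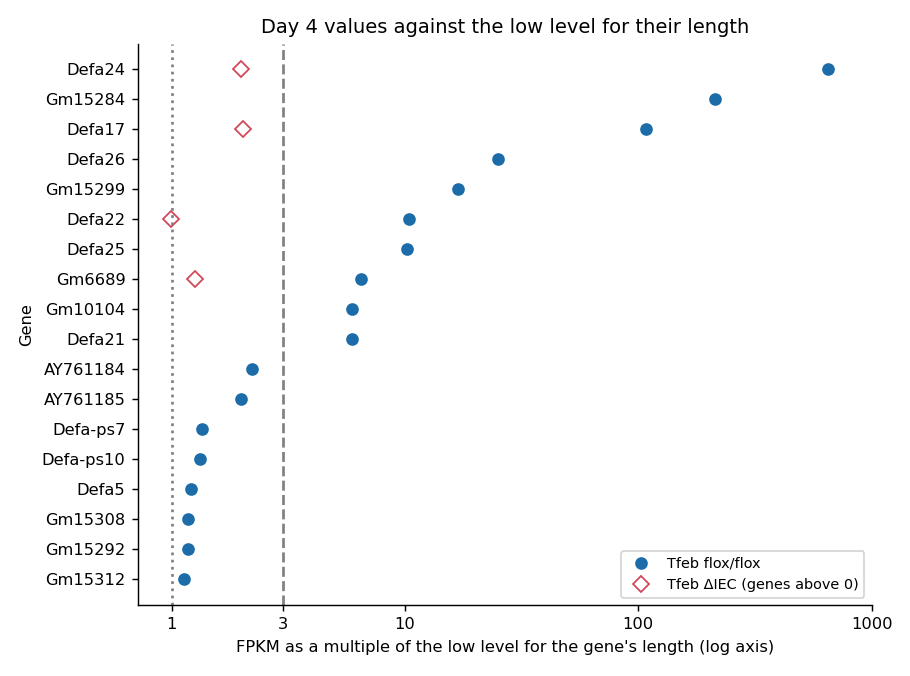
FPKM on Day 4 as a multiple of the low level for the gene's length (log axis, lines at 1 and 3 times), for 18 of the 19 genes in controls (filled circles) and the 4 of them above 0 in ΔIEC animals (open diamonds). The filled circles run from 1.13 to 651 times, and the diamonds lie between 0.994 and 2.02 times.

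Since the coding genes share much of their sequence, the 250 bases before their start were compared as well. RefSeq promoters (GRCm38.p6, the assembly of mm10) were found for 16 of the 28 coding α defensin genes, of which 5 had 1 FPKM or more. *Gm15284* is shown as the highest gene with an entry, and *Defa22* for its likeness to neighbours with other values. Capitals mark CTTTGAT, a core that TCF/LEF factors of the Wnt pathway bind, here on the opposite strand as ATCAAAG, and TATAAA, the TATA box.
*Gm15284*, chr8:21134400-21134649, plus strand: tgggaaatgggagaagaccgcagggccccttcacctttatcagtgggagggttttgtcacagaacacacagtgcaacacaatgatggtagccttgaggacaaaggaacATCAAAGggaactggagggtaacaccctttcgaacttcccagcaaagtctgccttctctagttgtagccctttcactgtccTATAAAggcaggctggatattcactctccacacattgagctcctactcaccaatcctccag
*Defa22*, chr8:21162027-21162276, plus strand: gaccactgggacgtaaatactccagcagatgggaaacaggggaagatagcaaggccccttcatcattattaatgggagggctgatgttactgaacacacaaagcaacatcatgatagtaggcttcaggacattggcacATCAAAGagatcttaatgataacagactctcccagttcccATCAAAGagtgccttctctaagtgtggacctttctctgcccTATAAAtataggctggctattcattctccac

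CTTTGAT was found in 13 of the 16 promoters on either strand, and in 3.73% of the 32851 promoters of the table, each searched over 250 bases before and 50 after the start. TATAAA was in 15 of the 16 and in 13.6% of all. Both were in all 5 promoters of genes with 1 FPKM or more, and in 8 and 10 of the 11 promoters of genes listed at 0. CACGTG, the E-box that TFEB binds, was in 0 of the 16 and in 7.15% of all, and TCACGTG, which contains it, was in 0 and in 3.77%. CTTTGAA was in 0 of the 16 and in 5.14% of all. The same count of 0 was found for CTTTGTT, held by 5.85% of all promoters. TGTTTAC, a core bound by FOX factors, was also in 0 of the 16 and in 3.65% of all. The 16 promoters are copies of related sequences and not independent. With so few promoters the counts of 0 are near the shares of all promoters, and nothing is read from them. No entry was found for *Defa24*, *Defa17*, *Defa26*, *Defa25* or *Gm15299*. In *Defa22* and *Defa21*, CTTTGAT began 112 and 72 bases before the start and TATAAA 31 bases before it. The 250 bases of *Defa21* and *Defa22* were identical, and 245 of them were shared at the same place with *Defa2* and *Defa20*, which were listed at 0 in all groups. Those listed zeros could rest on how reads were assigned. *Gm15308*, with 2.83 FPKM in controls on Day 4, shares 86.7% of its stretches with *Defa20* and 73.1% with *Defa2*. Nothing about the promoters is read from this contrast.

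Paneth cells make other antimicrobial products, and unlike the defensins the most abundant of these kept high values in both genotypes. Of 12 listed genes, 9 had 1 FPKM or more on Day 4, 4 were at least 4-fold lower in ΔIEC animals and none at least 4-fold higher, where 10.3% and 7.36% of all genes were, and the list's median was -1.50 on the log2 scale. On Day 0, 1 of 9 was at least 4-fold lower and 1 higher, against 3.35% and 2.09% of all genes, and the median was -0.18. The 4 highest genes are also made by other cells of the colon. *Reg3b*, a bactericidal lectin, had an FPKM of 359 in controls and 427 in ΔIEC animals on Day 0, and of 24898 and 8824 on Day 4. *Mptx1*, a pentraxin, had 7298 and 6442 on Day 0 and 22579 and 4299.9 on Day 4. *Reg3g*, another lectin of the family, had 254 and 265, and then 19968 and 7976. *Ang4*, a ribonuclease with antimicrobial activity, had 818 and 593, and then 3526 and 649. The following genes were chosen for naming after their values were seen. *Mmp7*, which cuts the precursors, was listed at 0 in all 6 values, *Lyz1*, the lysozyme of Paneth granules, had 3.07 and 2.39 on Day 4, and *Pla2g2a*, a phospholipase of the granules, had 4.27 and 111 on Day 0 and 116 and 10.2 on Day 4. *Mptx2*, a pentraxin like *Mptx1*, had 5.06 and 0 on Day 0, 19.9 and 2.57 on Day 4 and 18.6 and 2.44 on Day 11.

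**Figure D5:**
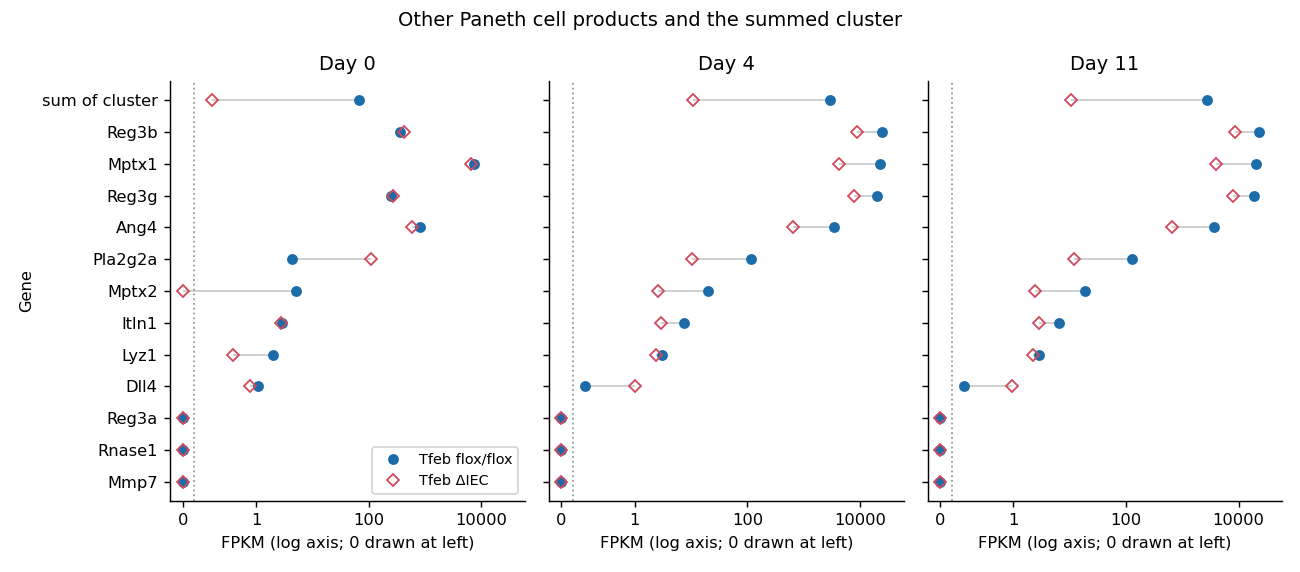
FPKM of 12 other Paneth cell products and of the summed cluster, by day, with each point the authors' value for 2 animals (filled circles *Tfeb* flox/flox, open diamonds *Tfeb* ΔIEC, log axis, 0 drawn left of the dotted line). *Mmp7* lies at 0 in all groups, and the summed cluster is at 2913 and 10.9 on Day 4.

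Most regulators of the Paneth cell lineage and its granules had values in both genotypes, but *Atg16l1*, *Nod2* and *Gfi1* were listed at 0 in controls on Days 4 and 11, and *Gfi1* in both genotypes on Day 0, genes named after their values were seen. Of 13 listed genes, 9 had 1 FPKM or more on Day 4 and 0 were at least 4-fold lower or higher, which with so few genes is near the 10.3% lower and 7.36% higher of all genes, and the list's median was 0.60 on the log2 scale. *Tcf7l2*, a TCF factor of the Wnt pathway, had an FPKM of 51.2 and 17.7 on Day 0 and 100.2 and 34.3 on Day 4. *Xbp1*, a factor of the secretory pathway, had 44.3 and 50.8, and then 14.6 and 55.4. *Ctnnb1*, which encodes β catenin, had 15.6 and 15.5, and then 15.96 and 24.7. *Atoh1*, which specifies secretory cells, had 20.0 and 30.4, and then 6.26 and 12.7.

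Of all 43 genes named *Defb* in the tables, 4 were above 0 in any group. *Defb37* had 8.04 in controls on Day 4 and 8.37 on Day 11 and was listed at 0 in ΔIEC animals. *Defb40* had 1.90 in ΔIEC animals on Day 4 and was listed at 0 in controls, and *Defb45* had 2.74 in controls on Day 0 only. The fourth was *Defb1*, described above.

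Markers of cell types that the samples could hold also had unequal values in the genotypes. All 12 colonocyte markers and all 6 epithelial markers were above 0 in both genotypes on every day, with sums of 52686 and 45067 and of 9082 and 9702 on Day 4. Of the colonocyte markers 4 were at least 4-fold higher in ΔIEC animals on Day 4 and 1 lower, where 7.36% and 10.3% of all genes were, with a median of 0.75 on the log2 scale. *Krt20*, a keratin of mature colonocytes, had 101 and 931, and the anion exchanger *Slc26a3* 33.3 and 271. In the other direction, *Saa1*, an acute phase protein, had 452 and 77.0, *Hoxb13*, a homeobox factor of the distal colon, 57.2 and 22.6, *Car4*, a carbonic anhydrase, 232 and 147, and *Lypd8*, which keeps bacteria off the epithelium, 26740 and 14731. Of the 6 epithelial markers 2 were at least 4-fold higher on Day 4 and 0 lower, against 7.36% and 10.3% of all genes. That list's median was 0.41 on the log2 scale. The 2 were *Cdh1*, which encodes E-cadherin, at 24.5 and 164, and *Vil1*, which encodes villin, at 30.6 and 224. The keratins *Krt8* at 1865 and 1481 and *Krt19* at 5453 and 5430 were lower in ΔIEC animals. The sum of 7 goblet cell markers was 149867 and 22801 on Day 4, against 40313 and 24493 on Day 0, and that of 6 enteroendocrine markers was 634 and 113 on Day 4. A few abundant genes carried these sums, and the members of these lists named here were chosen after their values were seen. Of the 7 goblet markers 4 were at least 4-fold lower in ΔIEC animals on Day 4, against 10.3% of all genes. The most abundant of the 4 was *Spink4* at 71372 and 6468, and the largest fold decrease was that of *Tff3* at 28759 and 2166. The mucin *Muc2*, in contrast, had 645 and 1894 and *Clca1* 432 and 1298. Of the 6 enteroendocrine markers 2 were at least 4-fold lower, the hormones *Sct* at 373 and 26.5 and *Pyy* at 209 and 17.8, whereas *Gcg* had 16.8 and 33.4 and *Chgb* 11.6 and 17.0. The 6 Paneth cell markers summed to 3672 and 667 on Day 4, nearly all of it *Ang4*. The 12 markers of small-intestinal enterocytes summed to 1940 and 925 on Day 0 and to 885 and 829 on Day 4. Nearly all of these sums was *Fabp2*, at 1882 and 891 on Day 0 and 852 and 799 on Day 4. Of the 12 markers *Apoa4* and *Lct* were listed at 0 in all 6 values. *Fabp6*, a bile acid carrier of the ileum named after its values were seen, had 18.8 and 1.74 on Day 0, 24.0 and 2.65 on Day 4 and 22.9 and 2.65 on Day 11. Of the 7 enterocyte markers with 1 FPKM or more on Day 4, *Fabp6* was the only one at least 4-fold lower, a count near the 10.3% of all genes with so few tested, and the list's median was 1.06 on the log2 scale. *Slc5a1*, a glucose transporter, had 2.76 and 13.8 on Day 4, and *Rbp2*, a retinol carrier, 1.24 and 7.56. Immune markers summed to 3.998 or less and stromal markers to 4.92 or less in every group. The part of these cell types in the values of the cluster was not tested.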

How the data were processed

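RNA-seq values of epithelial cells from the colon were analysed in 6 groups of 2 animals, assigned by the sample labels. The authors isolated cells with EDTA, prepared cDNA by a variation of SmartSeq2, sequenced paired-end reads on a MiSeq, mapped them to mm10 with TopHat2 2.0.14 and compared genotypes within each day with Cuffdiff 2.1.1, per the labels and methods. The annotation behind the tables is not given in the sources used here. The 3 deposited tables hold 1 FPKM per gene and genotype. They also hold the authors' fold changes, test statistics, p and q values, which were not used. No total read counts were used, so depth is unknown.

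The genes of the cluster and all lists were chosen with earlier results of these data known. Genes with 1 FPKM or more in any group are named with values, except 1 gene that enters the counts and sums but is not reported here. Of the Paneth cell products, the regulators and the β defensins, the 4 genes with the highest mean over the 6 values are named. Other genes of these lists, and all named genes of the cell type marker lists, were chosen after their values were seen. Log2 fold changes are those of ΔIEC animals over controls after adding 1 FPKM, which understates changes of low values, and at least 4-fold is a log2 change of 2 or more among genes with 1 FPKM or more in either genotype. No ratio is given against a listed 0, and the log2 fold change of such a gene enters counts and medians only, since it depends on the FPKM added. Names, lengths and coding sequences came from GENCODE M21 and promoters from RefSeq. Sequences were aligned globally with Biopython 1.88. Python 3.11.15, numpy 2.4.6, pandas 2.3.3 and matplotlib 3.10.9 were used. The counting recovered known changes set in genes with high values. That checks the arithmetic only, since no change was set in low values or to a listed 0. Alternatives were other pseudocounts, filters, folds and scalings, and fewer genes.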

Additional observations from a re-analysis of the deposited data

How the results depend on the processing

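Of 104 recomputed values, 68 were counts or ratios, of which 50 stayed within 1.5 times the value given. Some of these could not move. Keeping a single gene per overlapping locus, for example, removed only genes listed at 0 in every group. The tally is therefore no measure of how firm the results are. The pseudocount moved the medians most: with 0.1 FPKM they were -6.99, -6.33 and -6.33 on Days 0, 4 and 11, and with 5 FPKM -1.82, -2.09 and -1.97, with 1, 10 and 9 genes at least 4-fold lower. At 16-fold there were 1, 9 and 8 such genes. Without *Defa24* the ratio of the summed cluster was 218, 169 and 165, against 396, 268 and 260, and with both genotypes divided by their summed FPKM it was 150 on Day 4 and 146 on Day 11. The ratio of Day 0 rests on 1 pseudogene in ΔIEC animals. Alternatives added after the values were seen gave the following: with a listed 0 replaced by the low level, 2, 11 and 11 genes were at least 4-fold lower and the medians were -1.997, -2.51 and -2.36. The 11 genes at 3 times the low level or more in controls on Days 4 and 11 were all at least 4-fold lower, 6 of them listed at 0 after deletion, but were chosen by the control value and support nothing. No paired analysis was possible because each genotype has 1 value per day, made from both animals, and for the same reason no animal could be left out. Unknown depth limits what a listed 0 can show.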
